A study of Mus musculus with 2 samples.

Results

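The MEIS and PBX genes *Meis1*, *Meis2*, *Meis3*, *Pbx2*, *Pbx3* and *Pbx4* were examined as a named list, 6 of the 21755 protein-coding genes on the autosomes and the X chromosome. ATAC-seq, in which a transposase cuts and tags accessible DNA, was carried out on whole hearts of wildtype (WT) FVB mouse embryos at E11.5. There were 2 replicates, each made from 2 pooled hearts, and they form a single group, so no comparison between conditions was possible. Peaks were taken as shared where both replicates had one, and they were counted within 1 kb of every annotated start of the 6 genes (GENCODE M21, GRCm38/mm10), and in each gene body with 250 kb on each side. Every value was measured on whole hearts, so a region that is open in few cells and a region that is weakly open in many cells cannot be told apart.

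MEIS and PBX proteins are homeodomain transcription factors of the TALE class, named for an enlarged loop in their homeodomain. They bind DNA as partners of each other and of HOX proteins, and MEIS proteins also bind beside factors such as GATA and T-box proteins in the heart. In the mouse embryo this family is known for its role in the outflow tract, the septa and the neural crest cells that enter the heart, and MEIS1 is also known for restraining the cardiomyocyte cell cycle after birth.

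Around the 6 genes, 251 shared regions were found, of 98924 in the genome. The value given for each region is the fold enrichment of the authors' peak caller at the summit in each replicate, that is the read pileup divided by the genome average after adding 1 to each. Where a pair of values is given for a region, the first is that of replicate 1 and the second that of replicate 2. Where a small region was cut from a wide peak, this value is that of the wide peak, and its summit can lie outside the region. In 210 of the 251 regions both summits lay inside, in 28 only 1 of them did, and in 13 neither did. Known heart genes were read as markers of the tissue: a shared region lay at a start of 6 of 6 cardiomyocyte genes, 4 of 4 endothelial and endocardial genes and 3 of 3 epicardial genes. Such a region was present at 68.1% of all protein-coding genes, so full counts in lists this short say little about the tissue. Regions were also present at 2 of 3 blood genes (*Gata1* and *Klf1*, but not the leukocyte gene *Ptprc*), 1 of 3 neuronal genes (*Snap25*), 1 of 3 hepatocyte genes (*Ttr*) and 2 of 3 skeletal muscle genes (*Ckm* and *Myod1*). The part of each cell type in the regions of the MEIS and PBX genes was not tested.

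The accessible sequence inside the long genes *Meis1*, *Meis2* and *Pbx3* is shown first, because the density of intronic regions differed widely among these genes. For each gene the sequence from 100 bp before to 100 bp after the midpoint of both summits of its highest intronic region is given on the plus strand of GRCm38, read from the RefSeq assembly. Capitals mark the MEIS letters TGACAG and the letters TGATNNAT of PBX bound with HOX, each on either strand.
Meis1 intron, chr11:18970063-18970263: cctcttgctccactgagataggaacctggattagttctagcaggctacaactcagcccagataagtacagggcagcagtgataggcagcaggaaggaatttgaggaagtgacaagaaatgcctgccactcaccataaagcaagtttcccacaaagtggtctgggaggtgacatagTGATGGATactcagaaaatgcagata
Meis2 intron, chr2:115910261-115910461: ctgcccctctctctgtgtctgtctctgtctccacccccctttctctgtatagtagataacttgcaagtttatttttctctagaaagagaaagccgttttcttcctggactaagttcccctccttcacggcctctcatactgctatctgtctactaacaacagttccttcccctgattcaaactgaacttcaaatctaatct
Pbx3 intron, chr2:34249695-34249895: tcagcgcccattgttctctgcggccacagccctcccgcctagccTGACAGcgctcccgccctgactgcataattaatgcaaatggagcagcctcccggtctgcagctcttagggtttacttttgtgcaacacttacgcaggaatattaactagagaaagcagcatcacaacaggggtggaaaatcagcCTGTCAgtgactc
The *Meis1* sequence held 1 match to the PBX and HOX letters and 1 to the GATA letters AGATAA. The *Meis2* sequence held 1 GATA match and no match to the MEIS or PBX letters. The *Pbx3* sequence held 2 matches to the MEIS letters, 1 on each strand.

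Of all regions at least 1 kb from any protein-coding start, called distal here, the highest in each window by the mean of both replicates lay outside the intron of the member in all 6 cases. These are shown because they give the strongest distal sites near each gene, whether or not they act on it, which accessibility does not tell.
Meis1 outside the gene, chr11:18877678-18877878: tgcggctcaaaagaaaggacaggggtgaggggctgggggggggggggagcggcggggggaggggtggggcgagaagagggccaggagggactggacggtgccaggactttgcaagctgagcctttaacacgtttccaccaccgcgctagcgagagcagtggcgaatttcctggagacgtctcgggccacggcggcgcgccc
Meis2 outside the gene, chr2:116076003-116076203: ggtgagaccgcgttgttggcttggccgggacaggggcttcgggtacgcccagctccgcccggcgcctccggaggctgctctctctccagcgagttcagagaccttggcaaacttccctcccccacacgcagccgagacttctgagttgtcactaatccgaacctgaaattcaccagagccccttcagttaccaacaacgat
Meis3 outside the gene, chr7:16052831-16053031: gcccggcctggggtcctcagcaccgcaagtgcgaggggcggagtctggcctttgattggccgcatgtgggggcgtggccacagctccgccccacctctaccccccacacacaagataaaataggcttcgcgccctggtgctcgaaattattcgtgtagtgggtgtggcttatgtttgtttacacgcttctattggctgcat
Pbx2 outside the gene, chr17:34655647-34655847: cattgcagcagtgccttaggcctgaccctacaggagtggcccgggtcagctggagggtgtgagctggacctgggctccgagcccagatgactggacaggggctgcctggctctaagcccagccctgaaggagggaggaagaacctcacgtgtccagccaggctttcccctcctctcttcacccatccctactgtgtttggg
Pbx3 outside the gene, chr2:34591789-34591989: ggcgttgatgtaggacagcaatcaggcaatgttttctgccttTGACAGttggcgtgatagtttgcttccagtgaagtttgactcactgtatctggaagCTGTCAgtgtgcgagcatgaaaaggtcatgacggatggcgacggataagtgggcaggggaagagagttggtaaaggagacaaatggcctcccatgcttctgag
Pbx4 outside the gene, chr8:69716942-69717142: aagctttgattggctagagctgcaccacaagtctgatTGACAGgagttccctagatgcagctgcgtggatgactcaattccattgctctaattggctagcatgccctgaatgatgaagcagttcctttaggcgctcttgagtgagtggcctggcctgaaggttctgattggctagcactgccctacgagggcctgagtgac
The *Meis1* and *Meis2* sequences lie in gene deserts, stretches over 500 kb without a protein-coding gene, and the *Meis2* sequence overlaps 1 exon, that of the lncRNA gene *2810405F15Rik*. The *Pbx3* sequence lies inside its neighbour *Mapkap1* and holds 2 MEIS matches. The *Pbx4* sequence holds 1 MEIS match and the other 4 hold none.

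All 6 genes had a shared region at a start. Over all protein-coding genes 68.1% had one, and over the 7825 genes with 5 or more distinct starts, as each member has, 91.7% had one, so the count of 6 is near what genes with many starts show. The 6 genes have 54 distinct annotated starts, of which 44 had a shared region within 1 kb, against 58.2% of the 93196 starts of all protein-coding genes. All 23 starts of protein-coding transcripts had a region, against 63.9% of the 54081 such starts of all protein-coding genes, and the 10 starts without one were those of processed transcripts, retained introns or transcripts marked for nonsense-mediated decay. Neighbouring starts often fell on the same region, and the 44 starts rested on 18 regions, so they are not independent of each other.

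*Pbx3*, which encodes a PBX protein that partners HOX and MEIS proteins in the hindbrain and trunk, had the highest start. Its only start region (chr2:34370479-34373575) was 3097 bp long and reached a fold enrichment of 36.9 and 33.9. The mean of 35.4 was above that of 79.5% of the 14820 genes with a start region. This region covered 8 of the 9 annotated starts of the gene, including all that belong to protein-coding transcripts. Its G+C content was 64.8% and its ratio of observed to expected CpG was 0.85, against medians of 58.2% and 0.68 over the highest start regions of all genes.

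*Meis2*, a gene whose loss in people and mice is known to affect the septa, palate and neural crest derivatives, came next at its start. Its main region (chr2:116065258-116068117, 2860 bp) had a fold enrichment of 28.0 and 26.6, with a mean of 27.3 that was above 58.5% of genes. It also covers starts of the lncRNA genes *2700033N17Rik* and *G630016G05Rik*, and the reads cannot be assigned to 1 of the 3 genes. *Meis2* had 8 start regions in all, the most of the 6 genes, and 12 of its 16 starts had one. Apart from a piece of 433 bp cut from the main replicate 1 peak, the other start regions of *Meis2* had a fold enrichment of 5.43 to 8.96 in replicate 1 peaks and 4.27 to 7.54 in replicate 2 peaks.

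*Meis1*, known for its part in outflow tract and blood cell development, had a main start region of 3296 bp (chr11:19018463-19021758), the longest main start region of the 6 genes. Its fold enrichment was 27.4 and 22.9, and the mean of 25.2 was above 52.1% of genes. All 7 of its annotated starts had a shared region, and 5 of them lay on this one. The other start regions of *Meis1* lay inside the gene, at starts of transcripts not annotated as protein-coding, with a fold enrichment of 7.88 and 7.29 at chr11:19015513-19016894 and of 7.06 and 3.02 at chr11:19012559-19012758.

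*Pbx2*, a broadly expressed PBX gene that is dispensable on its own in the mouse, and *Pbx4*, a PBX gene known mainly from the testis, were close to the median of 24.5 over all genes with a start region. The *Pbx2* region (chr17:34591183-34593566) had a fold enrichment of 25.0 and 23.4, with a mean of 24.2, and it also covers a start of the overlapping gene *Gpsm3*. A second piece at the *Pbx2* start was 34 bp long and held no summit. The *Pbx4* region (chr8:69832068-69832995) had 25.0 and 22.6, with a mean of 23.8. *Pbx4* had another start region at chr8:69848854-69849408, near the start of a processed transcript inside the gene, with 16.8 and 19.9.

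*Meis3*, a MEIS gene known from the hindbrain and from pancreatic islet cells, had the lowest start of the 6. Its main region (chr7:16174812-16175975) had a fold enrichment of 15.8 and 14.3, and the mean of 15.0 was above 26.8% of genes. The region at its most 3′ start (chr7:16183674-16183863) was small, with 3.53 and 4.02. Of the 8 starts of *Meis3*, 6 had a shared region.

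The order of the 6 main start regions was the same in both replicates at its ends, with *Pbx3* first, *Meis2* second and *Meis3* last. Between them *Meis1* was above *Pbx4* in both replicates, while *Pbx2* was below *Meis1* in replicate 1 and above it in replicate 2 and was tied with *Pbx4* in replicate 1, so its place is not resolved. Replicate 1 gave the higher value at all 6 genes. With 2 replicates, the spread covers only these samples, and the lists hold no read totals from which a counting error could be computed.

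**Figure D1:**
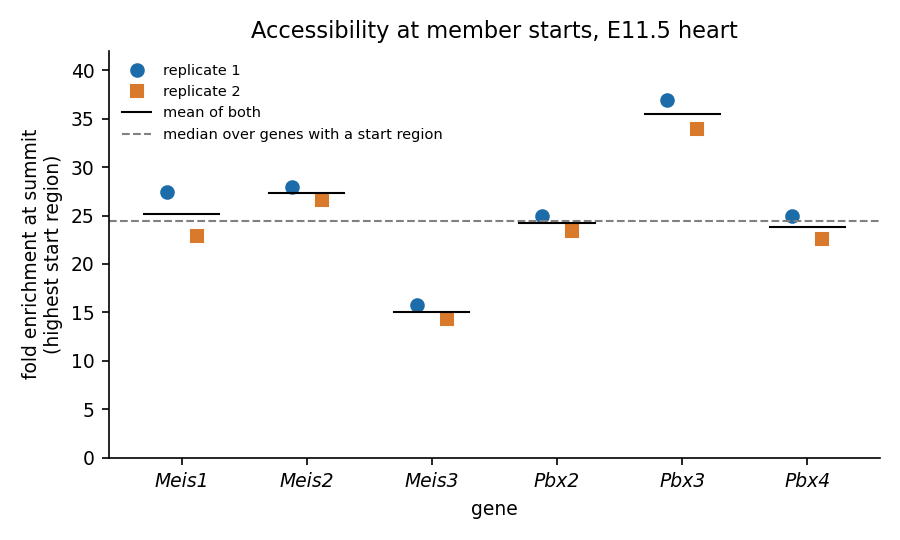
Fold enrichment at the summit of the highest start region of each gene, with circles for replicate 1, squares for replicate 2, short lines for their mean and a dashed line for the median of 24.5 over the 14820 genes with a start region. *Pbx3* lies above the other 5 genes in both replicates (36.9 and 33.9), and *Meis3* lies below them (15.8 and 14.3).

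The other members of the TALE class and a partner of PBX proteins were read in the same way. *Pknox1*, *Pknox2*, *Tgif1*, *Tgif2*, *Mkx* and *Pbxip1* all had a region at a start, 6 of 6, again beside a background of 68.1%. All but *Mkx*, which has 4, have 5 or more distinct starts. Over such genes 91.7% had a region, so this count too is near what genes with many starts show. Mean fold enrichment there was 45.4 at *Pknox1*, which encodes the PBX partner PREP1, 22.8 at *Pknox2*, 19.0 at *Tgif1*, 21.4 at *Tgif2*, 15.2 at *Mkx* and 18.6 at *Pbxip1*. *Pknox1* was thus higher at its start than any of the 6 MEIS and PBX genes, and in both replicates (45.6 and 45.3).

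The density of intronic regions differed widely among the long genes of the list. *Meis1*, *Meis2* and *Pbx3* are long genes with 128.6, 190.7 and 195.6 kb of intron, and they held 27, 25 and 2 intronic regions. Per 100 kb of intron this came to 20.99 in *Meis1*, 13.1 in *Meis2* and 1.02 in *Pbx3*. The median of the 2258 genes with at least 100 kb of intron was 3.39, with quartiles of 1.59 and 6.18. The density of *Meis1* was above that of 99.5% of these genes, that of *Meis2* above 94.8% and that of *Pbx3* above 17.5%. Each replicate alone gave the same order, with 24.1 (*Meis1*), 15.2 (*Meis2*) and 1.02 (*Pbx3*) in replicate 1 and 24.1, 13.1 and 1.02 in replicate 2. The gene body of *Meis1* held 37 peaks in each replicate, that of *Meis2* 39 and 35, and that of *Pbx3* 3 and 4.

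**Figure D2:**
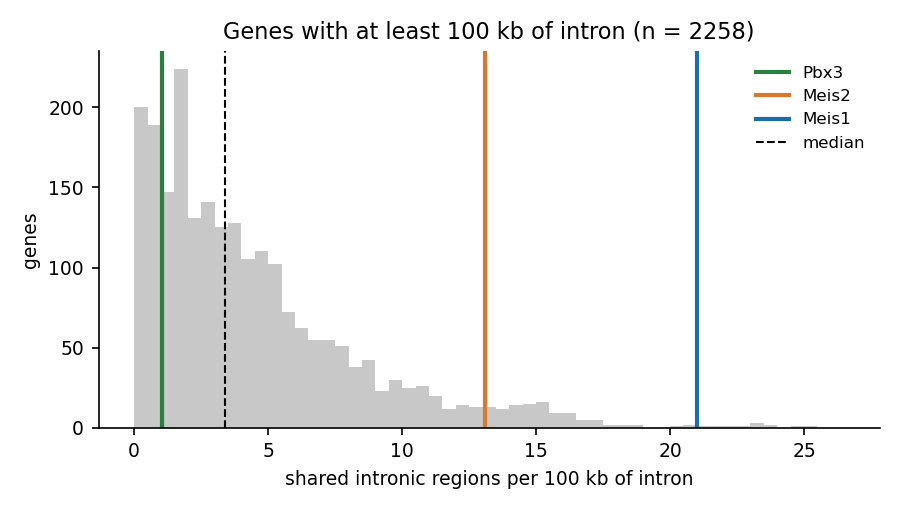
Number of genes (vertical axis) by shared intronic regions per 100 kb of intron (horizontal axis) for the 2258 genes with at least 100 kb of intron, with lines at *Pbx3* (1.02), *Meis2* (13.1) and *Meis1* (20.99) and a dashed line at the median (3.39). *Meis1* lies in the upper tail, *Meis2* in the upper part and *Pbx3* below the median.

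In *Meis1* most intronic regions lay in introns 6, 7 and 8. In its longest protein-coding transcript, which has 10 exons, intron 6 (22.9 kb) held 5 regions, intron 7 (46.5 kb) held 12, intron 8 (35.9 kb) held 8 and intron 9 (20.04 kb) held 1. Introns 6 to 9 made up 125.3 of the 128.6 kb of intron and held 26 of the 27 regions, close to their share of the length. Shared regions covered 12.6% of the gene body, and the longest stretch without one was 19.5 kb. The fold enrichment of the 27 intronic regions ran from 3.53 to 17.4 in replicate 1 peaks and 3.02 to 14.1 in replicate 2 peaks. Most of them were small, with a median mean of 5.54 that is close to the median of 5.74 over all 78019 distal regions, so *Meis1* stood out by the number of its intronic regions and not by their height.

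The highest intronic region of *Meis1* was that of the first sequence above (chr11:18969804-18970396, intron 7, 48.9 kb from the 5′ end), with a fold enrichment of 17.4 and 14.1. In the same intron, chr11:18963145-18964216 had 16.6 and 11.8, and chr11:18956950-18958676 had 13.6 and 13.1. Intron 6 held a region at chr11:19007416-19008507 with 11.95 and 11.3, which lies within 1 kb of starts of *2610001A08Rik* and *Gm16140*, both non-coding. The 3 regions of intron 7 kept their places above it in replicate 1 and in replicate 2, while their order among themselves differed between the replicates.

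In *Meis2* 23 of the 25 intronic regions lay in introns 7, 8 and 9 of the 13-exon transcript, with 5 regions in 48.8 kb, 10 in 78.4 kb and 8 in 52.9 kb. These introns make up 180.1 of the 190.7 kb of intron in the gene, so the count is close to their share of the length. Shared regions covered 7.70% of the gene body, and the longest stretch without one was 33.0 kb. The highest intronic regions were chr2:115910165-115910558 in intron 9 (11.1 and 10.3), chr2:115948945-115950087 in intron 8 (12.2 and 8.80) and chr2:115962728-115963226 in intron 8 (10.6 and 9.55). The first was above the third in both replicates, while the second was highest in replicate 1 and lowest in replicate 2, so its place is not resolved. The median mean of the 25 intronic regions was 5.09.

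*Pbx3* has the longest single intron of the 6 genes, intron 2 with 146.2 kb, and only 2 shared regions lay in it. The region of the *Pbx3* intron sequence above (chr2:34249388-34250248, 123.3 kb from the 5′ end) had a fold enrichment of 8.96 and 7.79. The other (chr2:34359547-34359812) had 3.26 and 4.02. Between them lay 109.3 kb without a shared region, and of this 109.1 kb held no peak of either replicate. Shared regions covered 1.88% of the gene body of *Pbx3*, although its start was the highest of the 6 genes.

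The shorter genes had few intronic regions. *Pbx4* had 1 in 37.6 kb of intron, at chr8:69850858-69851485 in intron 1, with a fold enrichment of 11.1 and 13.6. *Meis3* and *Pbx2*, with 8.24 and 2.50 kb of intron, had 0, and for genes of this length a count of 0 says little.

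**Figure D3:**
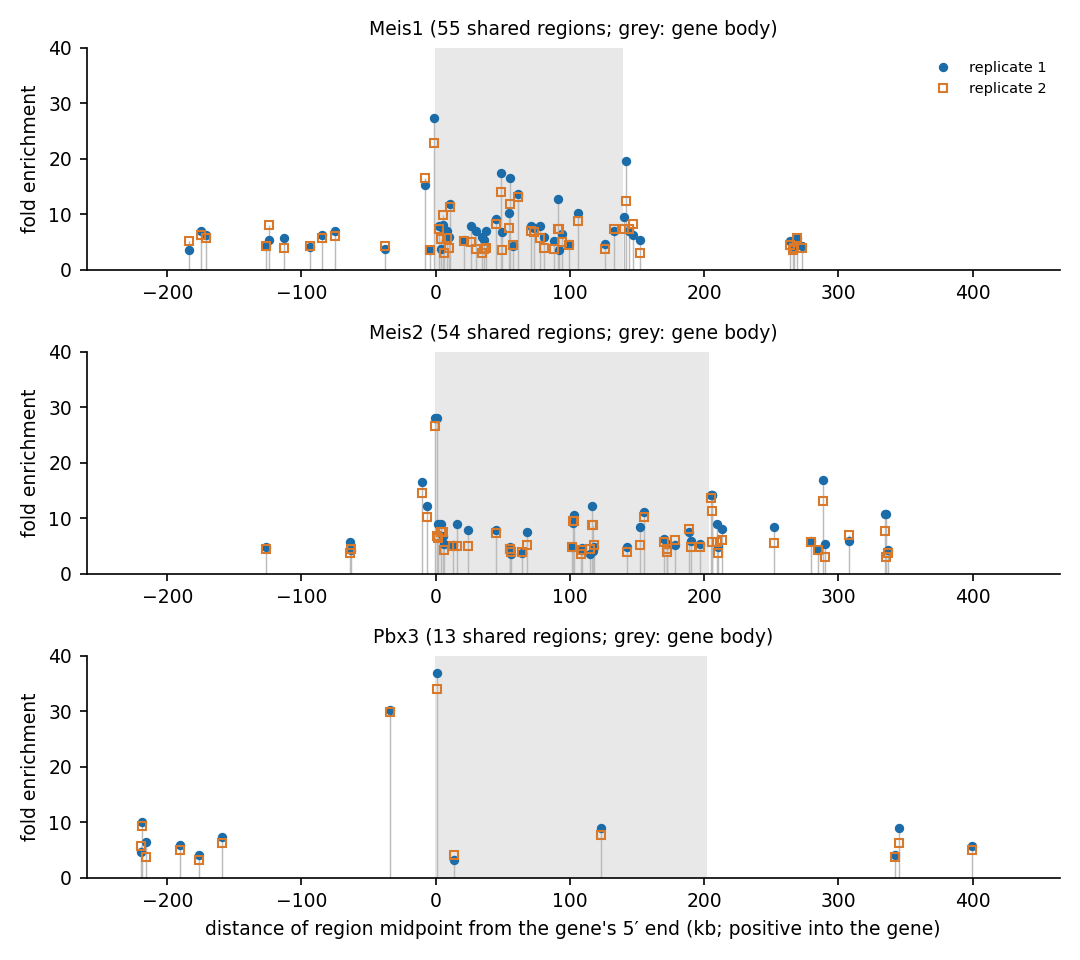
Fold enrichment at the summit (vertical axis) of each shared region in the windows of *Meis1*, *Meis2* and *Pbx3* by its distance from the 5′ end of the gene in kb (horizontal axis, positive into the gene), with filled circles for replicate 1 and open squares for replicate 2, and the gene body in grey. The gene bodies of *Meis1* and *Meis2* hold 33 and 34 regions, and that of *Pbx3* holds 3.

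Over the whole window of gene body and 250 kb on each side, the 6 genes had 55 (*Meis1*), 54 (*Meis2*), 68 (*Meis3*), 21 (*Pbx2*), 13 (*Pbx3*) and 40 (*Pbx4*) shared regions. The median over all protein-coding genes was 30. Windows differ in length, and per 100 kb the densities were 8.60 for *Meis1*, 7.68 for *Meis2*, 13.3 for *Meis3*, 4.15 for *Pbx2*, 1.85 for *Pbx3* and 7.41 for *Pbx4*, beside a median of 5.48 with quartiles of 3.29 and 7.67. The window of *Meis3* was denser than that of 97.6% of genes, that of *Meis1* than 82.9% and that of *Pbx3* than 14.4%. With 100 kb on each side in place of 250 kb, *Meis3* kept 20 regions and *Pbx3* 4, while *Meis1* kept 44 and *Meis2* 49, so the count of *Meis3* then fell below those of *Meis1* and *Meis2*.

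What lay in these windows differed as much as their number. *Meis1* had no other protein-coding gene in its window, and its 55 regions were 3 at its own starts, 3 on its exons, 27 in its introns and 22 in the gene deserts beside it. *Meis2*, with *BC052040* as the only other gene, had 8 at its own starts, 1 on an exon, 25 in introns, 5 in a gene desert, 9 in other intergenic DNA and 6 inside *BC052040*. In contrast, the window of *Meis3* held 15 other protein-coding genes, and of its 68 regions 43 lay inside them and 15 at their starts. *Pbx2* had 22 other genes, with 14 of its 21 regions at their starts, and *Pbx4* had 19, with 21 of its 40 regions at their starts and 14 inside them. For *Meis3*, *Pbx2* and *Pbx4*, the density of the window is therefore mostly a count of regions in and at neighbouring genes.

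**Figure D4:**
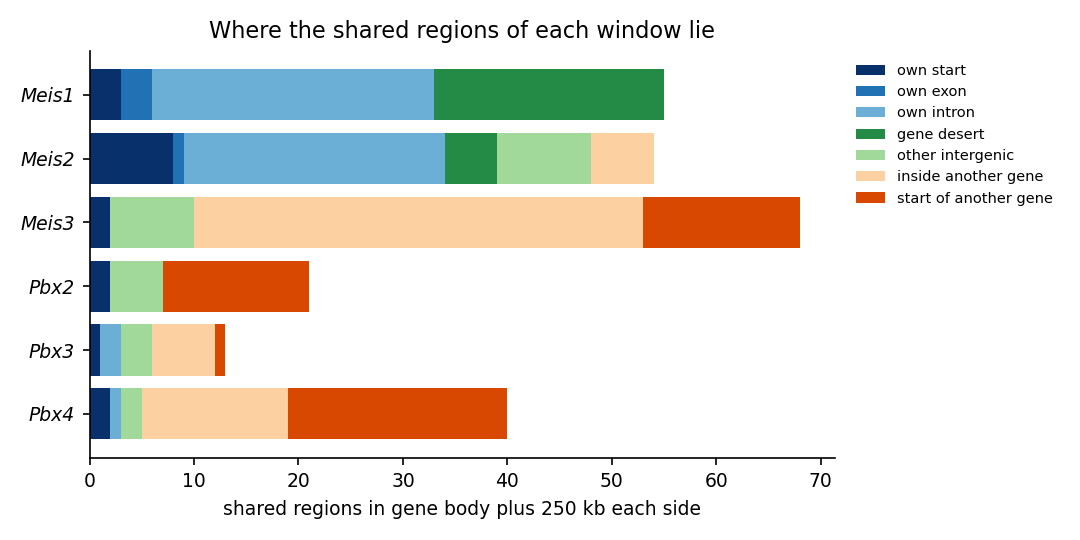
Number of shared regions (horizontal axis) in the gene body and 250 kb on each side of each gene, split by where they lie. Own introns and gene deserts make up most of the bars of *Meis1* (27 and 22 of 55), while regions in and at other genes make up most of the bar of *Meis3* (43 and 15 of 68).

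*Meis1* is flanked by a gene desert on each side, and *Meis2* by 1 on its 5′ side. The desert upstream of *Meis1*, toward *Spred2*, is 905.4 kb long and held 39 shared regions (48 peaks in each replicate), or 4.31 per 100 kb. This was more than in 93.5% of the 598 other autosomal gene deserts, whose median was 1.67 with quartiles of 0.80 and 2.74. The desert downstream of *Meis1*, toward *Etaa1*, is 925.9 kb long and held 23 regions (32 and 31 peaks), or 2.48 per 100 kb, which was more than in 69.6% of the others. The desert upstream of *Meis2*, toward *Tmco5*, is 812.9 kb long and held 13 regions (16 and 18 peaks), or 1.599 per 100 kb, close to the median. Regions in a desert cannot be assigned to either of its flanking genes from these data.

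In the desert between *Meis1* and *Spred2* there were 4.8 regions per 100 kb within 250 kb of *Meis1*, 2.0 between 250 and 500 kb and 5.43 beyond. Within 100 kb of *Meis1* there were 6, within 100 kb of *Spred2* there were 6, and the remaining 27 lay between. The highest (chr11:19919493-19920825) had a fold enrichment of 27.4 and 25.9, but it lay 901.2 kb from *Meis1* and 3550 bp from the nearest start of *Spred2*. Near *Meis1*, chr11:19026493-19027937, 8.2 kb upstream of its 5′ end, had 15.2 and 16.6.

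In the downstream desert of *Meis1* the density of regions fell with distance, from 4.0 per 100 kb within 250 kb of the gene to 2.0 between 250 and 500 kb and 1.88 beyond. The highest distal region of the window by its mean lay just past the 3′ end of *Meis1* (chr11:18876410-18878448) and had 19.6 and 12.3, the latter below the replicate 2 values of 4 other regions of this window, start included. The highest of the whole desert by its mean (chr11:18296177-18297060) lay 583.2 kb from *Meis1* and had 17.9 and 15.8. Nearer to *Meis1*, chr11:18598090-18598980, with 17.1 and 14.1, holds a MEIS match.

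In the desert of *Meis2* the highest region was also the highest distal region of its window by the mean of both replicates. This region (chr2:116075522-116076509, 10.2 kb upstream of *Meis2*) had 16.6 and 14.6, and it covers a start of the lncRNA gene *2810405F15Rik*. Closer to *Meis2*, chr2:116071453-116072736 had 12.2 and 10.3. On the other side of the gene, past its 3′ end, chr2:115859182-115860008 had 14.1 and 11.3 and chr2:115860525-115861155 had 14.1 and 13.6, but both were cut from 1 wide replicate 1 peak, whose value they share. Inside *BC052040*, chr2:115776668-115777825 had 16.8 and 13.1, the first of which is above that of the desert region.

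For the other 4 genes the strongest distal regions lay at some distance and nearer to other genes. The highest distal region of all 6 windows lay 115.5 kb upstream of *Pbx4* (chr8:69716321-69717619), with a fold enrichment of 53.5 and 50.0. It was above 99.8% of all shared regions, and the nearest annotated start, 5597 bp away, was that of *Zfp869*. Near *Meis3*, the highest distal region (chr7:16051805-16053402) had 41.8 and 38.7 and lay 3884 bp from a start of *Bicra*. Near *Pbx2*, the highest distal region (chr17:34655299-34655967) reached only 12.2 and 8.04 and lay 3672 bp from a start of *Atf6b*. *Pbx3* had its highest distal region at chr2:34591520-34592214 in *Mapkap1*, 218.7 kb upstream, with 10.1 and 9.30. Its mean of 9.68 was the lowest maximum of the 6 genes, but in replicate 2 that of *Pbx2* was lower.

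Taking the 182 distal regions of the 6 windows as a whole, their height was that of distal regions in general. Their median mean fold enrichment was 5.70, with 5.98 for replicate 1 and 5.28 for replicate 2, beside 5.74 over all distal regions. Regions seen in only 1 replicate were weak: in the 6 windows the highest peak found in 1 replicate and not in the other had a fold enrichment of 5.70 (replicate 1, *Meis1*). The summits of the replicates lay close together, with a median gap of 59 bp, and in 165 of the 251 regions they were within 100 bp.

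Short motifs were searched on both strands within 100 bp of the summits of the distal regions. The MEIS letters TGACAG occurred in 37 of the 182 regions (20.3%), beside 23.7% of all 78019 distal regions. The PBX and HOX letters TGATNNAT occurred in 12 (6.59%), beside 6.56%. Accessible DNA around the MEIS and PBX genes thus held these letters about as often as distal accessible DNA elsewhere. By gene the MEIS letters occurred in 10 of 52 distal regions of *Meis1*, 11 of 46 of *Meis2*, 5 of 51 of *Meis3*, 3 of 5 of *Pbx2*, 4 of 11 of *Pbx3* and 4 of 17 of *Pbx4*.

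Letters of other heart factors were near their background as well. The GATA letters AGATAA occurred in 40 regions (22.0%), beside 20.1%, the TEAD letters GGAATG in 14.3%, beside 16.4%, and the T-box letters GGTGTGA in 2.75%, beside 3.46%. The NKX2 letters CAAGTG or TTAAGTG occurred in 15.9%, beside 16.8%, and the E-box letters CAGCTG in 15.4%, beside 18.9%. The E-box letters can overlap the reverse MEIS letters, so these counts are not fully separate. In *Meis1*, 18 of 52 distal regions held the GATA letters, and over the 55 intronic regions of all genes the share was 27.3%, both singled out after the values were seen. A short match is a description of the sequence and does not show that a factor binds there.

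**Figure D5:**
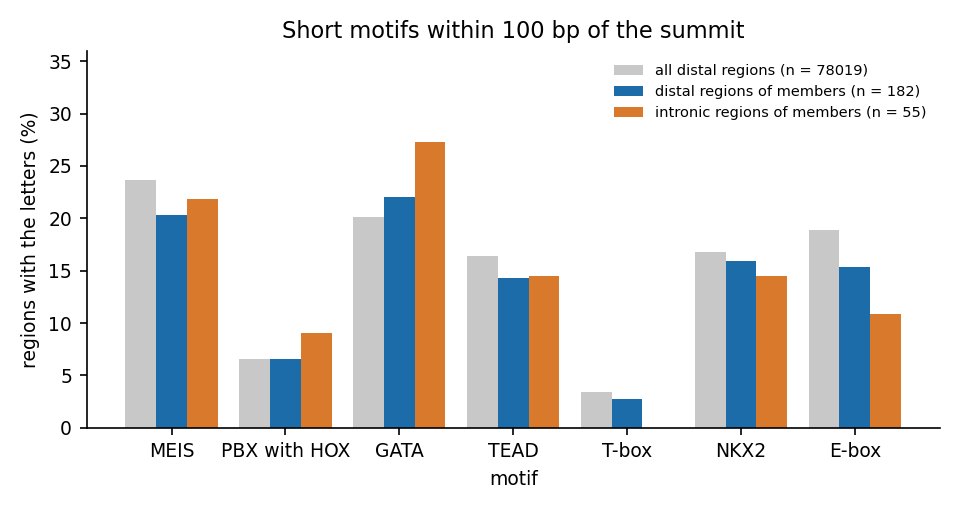
Share of regions in percent (vertical axis) that hold the letters of each motif within 100 bp of the summit (horizontal axis), for all 78019 distal regions (grey), the 182 distal regions of the 6 genes (blue) and their 55 intronic regions (orange). The shares of the MEIS letters (23.7%, 20.3% and 21.8%) lie close together, and GATA letters were found in 27.3% of the intronic regions.

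The RefSeq promoter table (GRCm38, 250 bases before to 50 after the start) matched 5 of the 6 genes, all but *Pbx3*. None of these 5 promoters held the MEIS letters, which occurred in 19.2% of the 32851 promoters of the table, and none held the PBX and HOX letters, which occurred in 8.85%. With 5 promoters, a count of 0 gives no measure of a difference from these shares.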

How the data were processed

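The deposited files are 1 peak list for each of the 2 replicates. Per the study's methods, the authors trimmed single-end reads of 50 bp (Trim Galore 0.6.6), mapped them to GRCm38/mm10 (Bowtie2 2.4.2), removed duplicates and poorly mapped reads (SAMtools 1.12), which thins repeats, and called peaks with MACS2 per replicate, without local background. The deposited fold enrichment is a ratio at the summit, the deposited p- and q-values are written as −log10 p and as −log10 q, and the authors' score is the −log10 q scaled to a whole number. In the lists the weakest p-values and the length of the shortest peaks do not match the limit and the read extension given in those methods, and every peak was kept. Depth is not given by peak lists, so no counting interval was computed. The 118027 and 114783 peaks were intersected (at least 1 bp, replicate 1 peaks trimmed to replicate 2, checked against bedtools 2.31.1). Scripts ran in Python 3.11.15 with Matplotlib 3.10.9, NumPy 2.4.6 and pandas 2.3.3. The overlap and motif code was tested on simulated data. Named were all 6 genes with their starts, the 5 highest distal regions of each window and the highest of each gene desert, of which those that the results turn on are printed; other intronic regions were named after their values were seen. The members and lists were chosen with earlier results of these data known. With 1 group no test was run. Alternatives were each replicate alone, limits on p and q, other overlaps, windows, bounds and motif windows.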

Additional observations from a re-analysis of the deposited data

How the results depend on the processing

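No paired analysis was possible because there is 1 group. All 6 genes had a region at a start under every alternative, and 44 of 54 starts became 48 at most and 37 at least; with protein-coding transcripts only, 23 of 23 starts had one (beside 63.9% of all such starts). A q-value of at most 1e-10 in both replicates admits fewer peaks, and it left 121 of the 251 regions in the windows, 21 of the 55 in introns, 30 of the 75 in the whole deserts and 14 of the 37 with MEIS letters, while the median distal fold enrichment rose from 5.70 to 9.84. It left 11 intronic regions in *Meis1*, 8 in *Meis2* and 1 in *Pbx3*, so that 98.98%, 90.8% and 28.5% of long genes had a lower density. Each replicate alone gave a median distal fold enrichment of 4.53 to 5.43, where peaks seen in only 1 list enter and 1 replicate's values replace the mean, and the lower of both replicate values gave 4.96. A flank of 100 kb gave 160 regions and a flank of 500 kb gave 421. Desert counts fell to 27 within 250 kb of the genes, and to 0 with every annotated gene except pseudogenes as a bound and the minimum length lowered to 100 kb, since no gap of that length then adjoins any of the 6 genes. MEIS letters occurred in 60 whole regions of 182 (beside 36.7% of all distal regions) and in 21 regions within 50 bp of the summit (beside 13.3%). With a reciprocal overlap of at least 50%, *Meis2* had 16 intronic regions in place of 25. Keeping only regions that hold both summits was added after seeing the data and left 26, 18 and 2 intronic regions in *Meis1*, *Meis2* and *Pbx3*.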
